A study of Mus musculus with 4 samples.

Results

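Eomes, Mixl1, Gsc, Lhx1 and Evx1 are transcription factor genes that are switched on in the primitive streak, and the accessible chromatin around these 5 of the 21851 protein-coding genes of the annotation was followed in WT and CTCF-K20R embryoid bodies. The genes were taken by name, with earlier results of these data known. Peaks were assigned to a gene when they lay within 1 kb of one of its transcription start sites (TSSs), which is called the promoter here, or within 50 kb of one, which is called the locus. Accessibility was measured by ATAC-seq, an assay that lets a transposase insert sequencing adapters wherever DNA is open. Embryoid bodies are aggregates in which embryonic stem cells leave self-renewal and form early lineages, here from the mouse line E14Tg2A, grown on inactivated mouse fibroblasts and sampled on day 4 in serum medium. WT cells carried unedited CTCF, and K20R cells carried a CTCF with arginine for lysine 20, made by CRISPR/Cas9 editing. There were 2 libraries of each genotype, described in the methods of the study as biological replicates, and the number of edited clones behind them is not given in the sources used here.

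The primitive streak is the structure through which epiblast cells of the gastrulating embryo leave to become mesoderm and definitive endoderm, and Nodal, Wnt and Bmp signals induce it. Eomes, a T-box factor, is needed for endoderm and for the cardiac mesoderm. Mixl1, a paired-type homeobox factor, marks the streak as a whole, Gsc and Lhx1 mark its anterior end and the organizer, and Evx1, an even-skipped homeobox factor, marks its posterior part. CTCF is a zinc finger protein that binds insulators and the anchors of chromatin loops.

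In these data every one of the 5 promoters was accessible in every library, and the direction of the difference between the genotypes varied from locus to locus. The promoter peaks of Evx1, Lhx1 and Mixl1 ranked lower in both K20R libraries than in both WT libraries, and those of Eomes and Gsc ranked higher. Such separation was common, as 32.2% of all genes with a promoter peak in every library were lower and 15.7% higher. When ranked by fold enrichment Mixl1 was higher in K20R, and Lhx1 and Eomes overlapped. Mixl1 had 3 peaks in its locus in each K20R library against 5 and 6 in WT, and 2 regions upstream of the gene had a peak only in the WT libraries. Of all genes with any peak in the locus, 22.1% had fewer peaks in both K20R libraries. Gsc had a peak 39990 bp downstream of its TSS only in the K20R libraries, while a region 46223 bp downstream of the same TSS was lower in K20R. With so few libraries, 2 against 2, an exact permutation test cannot give a p below 0.333, so single promoters and loci are described by whether the libraries of the genotypes overlap.

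The 4 regions with peaks in only 1 genotype that had the highest mean percentile in the lists are shown first by their sequence. Peak numbers are missing from the K20R lists around both Mixl1 regions, so peaks called there may have been removed. Each line gives the 101 bases around the summit of the strongest peak of a region that had a peak in both libraries of one genotype and in no library of the other, on the plus strand of mm10, with the summit base in capitals.
Mixl1, 6596 bp upstream, WT only, chr1:180703580-180703680: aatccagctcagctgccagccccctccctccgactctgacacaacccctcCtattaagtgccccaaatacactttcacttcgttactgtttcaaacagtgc
Mixl1, 17354 bp upstream, WT only, chr1:180714338-180714438: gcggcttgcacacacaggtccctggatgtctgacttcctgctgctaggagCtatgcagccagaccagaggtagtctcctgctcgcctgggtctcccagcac
Lhx1, 45223 bp upstream, WT only, chr11:84570708-84570808: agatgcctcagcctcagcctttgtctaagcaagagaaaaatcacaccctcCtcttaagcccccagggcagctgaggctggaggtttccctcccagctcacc
Gsc, 39990 bp downstream, K20R only, chr12:104433290-104433390: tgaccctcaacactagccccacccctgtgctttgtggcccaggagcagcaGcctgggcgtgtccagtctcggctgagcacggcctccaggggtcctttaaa
No T-box, FOXH1, TCF-LEF, GATA, homeodomain, octamer or CTCF word (listed with the motif counts) occurred within 100 bp of any of these 4 summits.

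The lists held 59783 and 66703 peaks in the WT libraries and 51823 and 55832 in the K20R libraries, and merging peaks that share at least 1 bp gave 80380 regions. The median fold enrichment at regions common to all 4 lists was 5.86 and 7.74 in WT compared with 5.73 and 7.59 in K20R, so the second library of each genotype had the higher enrichment. Read totals were not used here, and the relative depth that the background of each list implies was between 0.976 and 1.15 of the first WT library. Peak heights were therefore compared as percentiles of the −log10 p within each list, where 100 is the strongest peak. Of 6 pluripotency genes all had a promoter peak in every list. In K20R 1 was lower (Nanog), 3 were higher (Pou5f1, Sox2 and Zfp42) and 2 overlapped (Esrrb and Klf4). Of 5 neuroectoderm genes all had one, with 2 lower (Pax6 and Zic1) and 3 overlapping. Among all protein-coding genes with a promoter peak in every list, 32.2% were lower and 15.7% higher. Of 8 feeder fibroblast genes 4 had a promoter peak in all lists and Col3a1, Lum and Postn had none in any. Of these 4, Thy1 was lower in K20R and the others overlapped, and their percentiles summed to 297 and 324 in WT, against 294 and 301 in K20R. Dcn had a promoter peak in every list but that of K20R replicate 1. It was at percentile 67.9 and 77.7 in WT and at 24.7 in K20R replicate 2. With Dcn included where it had a peak, the percentiles summed to 365 and 402 in WT, against 294 and 326 in K20R. The part of these cell types in the results below was not tested, and in these bulk samples fewer cells of a type and less accessible chromatin per cell cannot be told apart.

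By this percentile the promoter of Evx1 differed most. Its strongest promoter peak was at percentile 63.9 and 75.5 in the WT libraries and at 39.9 and 42.9 in the K20R libraries. Both K20R values lay far below both WT values, and the mean was 69.7 ± 8.26 in WT but 41.4 ± 2.13 in K20R (SD, n = 2; exact permutation test, two-sided p = 0.333). The shape of the peak also differed. In WT a peak of 2175 and 2553 bp ran from the TSS into the gene with its summit 1301 and 1450 bp downstream. In K20R the peak nearest the TSS was 1256 and 1776 bp long with its summit 477 and 481 bp downstream. The peak of K20R replicate 1 covered no TSS of the gene and began 139 bp from the nearest. The K20R lists held 2 further peaks, with summits 2294 and 2404 bp and 3347 and 3344 bp downstream, the farther of which lay beyond the end of both WT peaks. After the WT peak 5 peak numbers are missing in each WT list, so WT peaks called there may have been taken out of the lists. When distance was measured from the summit, the WT libraries had no Evx1 peak within 1 kb, so this comparison could not be made.

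The promoter of Lhx1, which encodes a LIM homeobox factor, was next. It was at percentile 78.4 and 75.1 in the WT libraries and 62.9 and 60.0 in the K20R libraries. The WT libraries were again both above the K20R libraries, with a difference of -15.3 between the means. The promoter of Mixl1 was the highest ranked of the 5, at 83.0 and 82.8 in WT compared with 77.8 and 79.7 in K20R. This difference of -4.11 was small and did not hold under every ranking: the genotypes overlapped when the same number of strongest peaks was taken from each list, with 80.4 and 77.8 in WT, against 77.8 and 78.1 in K20R.

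At the promoters of Eomes and Gsc the order was the opposite. Eomes was at percentile 72.8 and 65.8 in the WT libraries and 75.5 and 74.1 in the K20R libraries. The K20R libraries lay above both WT libraries, with a difference of 5.54, which was close to the distance between the WT libraries. Gsc was at 56.2 and 57.6 in WT compared with 60.5 and 58.8 in K20R, a difference of 2.74, and its promoter was the weakest of the 5 in WT. With the lists limited to a −log10 q of 5 or more, the Gsc promoter overlapped, at 34.5 and 45.5 for WT and 42.7 and 48.5 for K20R.

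**Figure D1:**
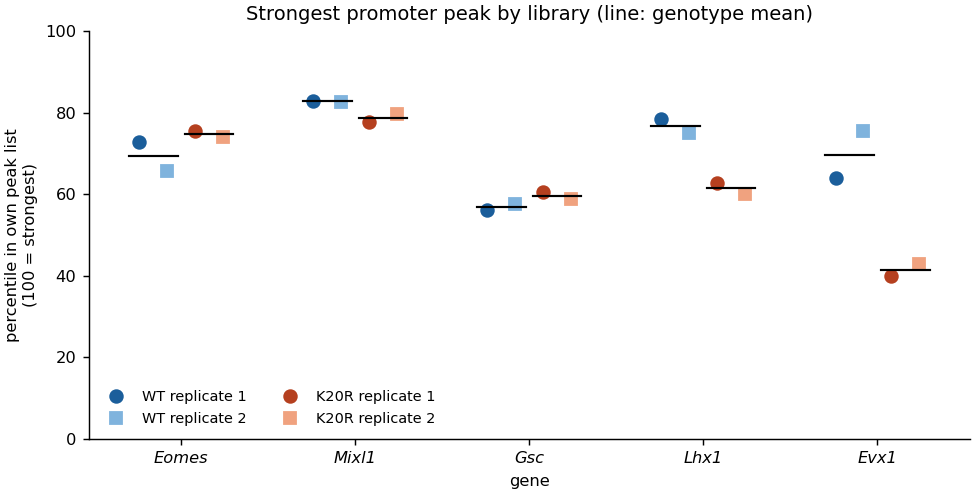
Percentile of the strongest promoter peak in its own peak list (vertical axis, 100 the strongest) for the 5 genes (horizontal axis), with a point for each of the 4 libraries and a line at each genotype mean. Evx1 lies at 63.9 and 75.5 for WT but 39.9 and 42.9 for K20R, and Lhx1 at 78.4 and 75.1 but 62.9 and 60.0, while the K20R points of Eomes and Gsc lie above their WT points.

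The genotypes thus did not overlap at any of the 5 promoters, with 3 lower and 2 higher in K20R. Of 14466 protein-coding genes with a promoter peak in all 4 lists, 32.2% were lower and 15.7% higher by the same measure, so non-overlap of itself was common. When the promoter peaks were ranked only against each other, 22.9% of genes were lower and 23.8% higher, and the same 3 genes were lower and the same 2 higher. The difference at Evx1 was then -14.0, and Lhx1 differed most, by -15.0. Ranking by the fold enrichment, in place of the −log10 p, gave another picture: Mixl1 turned to 76.6 and 71.0 in WT, against 80.7 and 82.1 in K20R, Lhx1 overlapped, with 48.9 and 36.9 in the WT libraries and 39.4 and 28.2 in the K20R libraries, and Eomes overlapped, with 49.9 and 32.9 in WT compared with 58.1 and 47.6 in K20R. By fold, 24.6% of all promoters were lower in K20R and 14.2% higher. Evx1 stayed lower, with 27.5 and 37.0 in WT, against 20.5 and 16.6 in K20R, and Gsc stayed higher and differed most, with 26.9 and 22.6 in the WT libraries and 43.4 and 36.5 in the K20R libraries.

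The fold is the reads piled up at the summit relative to the local background in that library, and both can be computed back from the fold and p of a peak. At the Evx1 promoter the pileup was 66 and 117 reads in WT compared with 37 and 61 in K20R at the strongest peak, over a local background of 18.5 and 24.2 reads in WT, against 11.4 and 17.8 in K20R. Pileup and background were both smaller in K20R, so that the fold differed less than the pileup. At the Mixl1 promoter the pileup was 69 and 98 reads in the WT libraries and 56 and 88 in the K20R libraries, and the background was 8.68 and 11.1 in WT compared with 6.12 and 7.67 in K20R. The Mixl1 summits lay 442 and 384 bp upstream of the TSS in WT and 36 and 100 bp downstream in K20R. At both promoters the genotypes were thus read at different positions.

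Peaks in the loci were then counted. Mixl1 had 5 and 6 peaks in the WT libraries and 3 in each K20R library, and the peaks covered 5952 and 5932 bp in WT, against 2814 and 2966 bp in K20R. Neither the number nor the covered length overlapped between the genotypes. In the K20R lists 6 and 1 peak numbers are missing where the WT-only Mixl1 peaks lie, which bears on both measures. Eomes had 6 peaks in each WT library and 5 in each K20R library. Its covered length did not overlap either, at 7749 and 8425 bp in WT, against 7329 and 7287 bp in K20R. How often covered length does not overlap over all genes was not computed. Evx1 had more peaks in K20R, with 8 in each library against 5 and 6 in WT, and the 5 peak numbers missing downstream of the WT promoter peak in each WT list bear on this count. The covered length at Evx1 overlapped, at 5086 and 5676 bp in the WT libraries and 5559 and 6834 bp in the K20R libraries. Gsc had 6 and 7 peaks in WT compared with 7 and 8 in K20R, and Lhx1 had 8 and 6 in WT, against 5 and 6 in K20R, both overlapping. The overlap at Lhx1 rests on a peak of K20R replicate 2 at percentile 0.722, near the bottom of its list.

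Over the 5 loci together the libraries held 30 and 31 peaks in the WT libraries and 28 and 30 in the K20R libraries (exact permutation test, two-sided p = 0.667). Of 19065 genes with any peak within 50 kb, 22.1% had fewer peaks in both K20R libraries than in both WT libraries and 5.42% had more. Counted per 10000 peaks of the list, the 5 loci held more peaks in K20R than in WT, by 0.555, and with the same number of strongest peaks taken from each list they held 3 more in K20R.

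**Figure D2:**
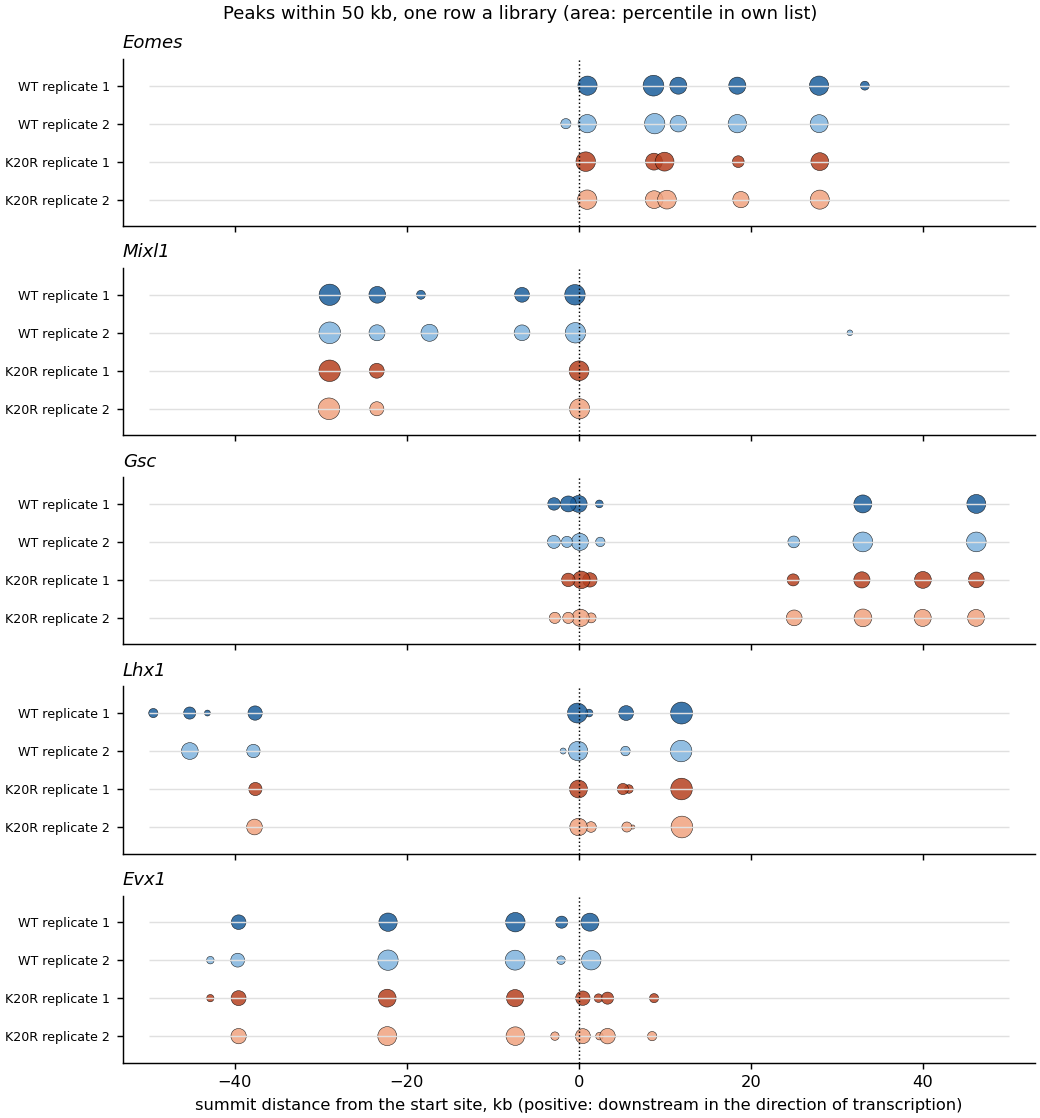
Summits of all peaks within 50 kb of the 5 genes by distance from the TSS in kb (horizontal axis, positive in the direction of transcription), with 1 row for each library and the area of a point rising with the percentile of the peak. The Mixl1 rows of K20R lack the WT points between the promoter and the pair near the left side, and the Gsc rows of K20R hold a point at 39990 bp that the WT rows lack.

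These peaks merged into 37 regions. Of these 19 were common to all lists (51.4%, against 47.9% of all regions), 5 were restricted to WT (13.5%, against 10.4%), 3 were restricted to K20R (8.11%, against 3.10%), and 10 had a peak in some other set of libraries. Of these 10, 7 had a peak in 1 library alone, 6 of them in a WT library, and they were weak, between percentile 3.83 and 18.6. The WT lists were also the longer ones, with 59783 and 66703 peaks, against 51823 and 55832 in K20R. Without WT replicate 1, and likewise without WT replicate 2, there were 8 WT-restricted regions, and without K20R replicate 1 there were 5 K20R-restricted ones. Under the same limit on q there was 1 of each kind. Peak numbers in the lists run with gaps, which shows that called peaks were taken out before deposit. Where no number is missing between the neighbours of an absent peak, no called peak was taken out there.

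Both regions of Mixl1 restricted to WT were intergenic and upstream of the gene. The nearer, at chr1:180702685-180703960 with its summit 6596 bp upstream of the TSS, was at percentile 42.4 and 48.1 in WT. The farther, at chr1:180714231-180715537 with its summit 17354 bp upstream and nearer to the TSS of the neighbour Acbd3, was at 13.6 and 56.8, and the summits of its WT peaks differed, at 18348 and 17354 bp upstream. Both regions lie in 1 gap between neighbouring peaks of each K20R list, in which 6 and 1 numbers are missing, so a called and removed peak is possible in K20R, in the second library at only 1 of the regions. The next common region, 23424 bp upstream, was at 54.8 and 49.7 in WT compared with 42.7 and 37.8 in K20R, which did not overlap either (log2 fold, K20R minus WT, -0.22 ± 0.23 SE, limma adjusted p = 0.711). The common region farthest upstream, 28954 bp from the TSS, is the promoter of Acbd3, a Golgi protein gene. It was at 90.0 and 93.3 in WT, against 91.9 and 92.6 in K20R, which overlapped, so the WT peaks without a K20R counterpart stood between a pair of promoters that kept theirs.

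Lhx1 had 1 region restricted to WT, intergenic at chr11:84570318-84571094, 45223 bp upstream of the TSS. It was at percentile 27.5 and 54.9 in WT. No peak number was missing there in either K20R list. Evx1 also had a region restricted to WT with no missing number, 1987 bp upstream of the TSS at chr6:52311322-52311862 within Evx1os, the antisense transcript of the locus, at the low percentiles of 27.3 and 12.3. Gsc had a weak one 2504 bp downstream of the TSS, just past the end of the gene, at 9.69 and 15.6, with 2 numbers missing in each K20R list.

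The K20R-restricted region farthest from Gsc was the strongest of its kind. It was intergenic at chr12:104433062-104433939, with its summit 39990 bp downstream of the TSS, and it was at percentile 55.6 and 57.1 in the K20R libraries. No peak number was missing there in either WT list. The other region of Gsc restricted to K20R, at chr12:104471076-104472305, lay over an exon of the gene with its summit 1292 bp downstream of the TSS. It was at 39.6 and 17.5 in K20R, again with no number missing in WT. It began just past the end of the weak WT-restricted region behind the gene, and when regions had to lie at least 200 bp from any peak of the other genotype, 4 WT-restricted and 2 K20R-restricted regions were counted. The region of Evx1 restricted to K20R, 8532 bp downstream of the TSS, was weak, at 14.4 and 14.9, and 5 numbers were missing there in each WT list.

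At the common regions the log2 fold was compared with limma after quantile normalisation over all 38527 common regions. Of these, 3.63% were lower and 2.48% higher in K20R at an adjusted p of 0.05. At an unadjusted p under 0.05, 3 of the 19 regions in the 5 loci were lower and 1 was higher. Over all 38527 common regions 3619 were lower and 3382 higher by that measure. At the adjusted p 1 of the 19 regions was lower and 0 were higher. The region that passed lay at chr12:104426876-104427244, intergenic, with its summit 46223 bp downstream of the Gsc TSS and 20378 bp from the TSS of Serpina3n. Its fold was 8.37 and 12.1 in the WT libraries and 5.31 and 7.84 in the K20R libraries, and its percentile was 70.8 and 77.0 in WT compared with 48.3 and 55.7 in K20R. The first WT library exceeded the second K20R library only narrowly in fold, while the percentiles were far apart. The log2 fold differed by -0.60 ± 0.18 (SE, limma adjusted p = 0.0429), and the adjusted p rose to between 0.0573 and 0.282 when 1 library was left out.

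This region holds a word of the CTCF consensus, as does the region 25047 bp downstream of Gsc, and those were the only strict matches among the 37 regions. Both are shown over 201 bases around the summit on the plus strand of mm10, with the match, which lies on the minus strand, in capitals.
Gsc, 46223 bp downstream, chr12:104427007-104427207: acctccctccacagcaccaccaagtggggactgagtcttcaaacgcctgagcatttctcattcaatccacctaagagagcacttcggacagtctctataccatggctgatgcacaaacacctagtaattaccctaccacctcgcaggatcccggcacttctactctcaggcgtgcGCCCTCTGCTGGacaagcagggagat
Gsc, 25047 bp downstream, chr12:104448183-104448383: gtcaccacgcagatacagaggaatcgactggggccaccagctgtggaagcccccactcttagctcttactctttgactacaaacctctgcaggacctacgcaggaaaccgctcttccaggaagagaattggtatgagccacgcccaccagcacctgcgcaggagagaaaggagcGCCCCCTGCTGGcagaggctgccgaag
The matches begin 75 and 74 bp from the respective summits on the plus strand. The region 25047 bp downstream had no peak in the first WT list, where 5 numbers were missing, and was at percentile 25.8 in the second WT library and 27.1 and 48.4 in K20R. With that value missing, the order of the genotypes at this region is not known. Of the 2699 common regions with the consensus, 1.30% were lower and 1.85% higher in K20R by limma.

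Between these lay a region 33031 bp downstream of the Gsc TSS, at percentile 63.5 and 77.5 in WT, against 51.1 and 61.9 in K20R. It did not pass the test, with a log2 difference of -0.42 ± 0.21 (SE, limma adjusted p = 0.273). Downstream of Gsc the ordering was therefore mixed over a short distance, with regions 33031 and 46223 bp away ranking lower in K20R and the region between them found only in K20R.

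Downstream of Eomes, the region 8686 bp from the TSS, within the antisense transcript Gm33460, was the strongest of the locus in WT. The strongest peak of the merged region was at percentile 85.4 and 81.9 in the WT libraries and 70.2 and 69.5 in the K20R libraries, but at another summit, 8686 and 8831 bp downstream in WT and 9975 and 10253 bp in K20R. The peak was divided in K20R: WT had 1 peak of 2825 and 2790 bp with a second, short one after it, and K20R had a peak of 664 and 855 bp beside one of 2277 and 2084 bp. The strongest peak had a summit pileup of 122 and 164 reads in WT compared with 65 and 99 in K20R, and its log2 fold differed by 0.17 ± 0.24 (SE, limma adjusted p = 0.803). The K20R peaks at the WT summit, 8747 and 8766 bp downstream, were at percentile 55.8 and 61.8 with pileups of 50 and 86 reads. Their folds of 3.73 and 4.44 lay below the WT folds of 4.61 and 4.52, the latter pair only narrowly. These folds were not normalised between libraries, and the position was chosen as the summit of the WT peaks. The region 18435 bp downstream was at 57.2 and 66.1 in WT, against 25.7 and 51.4 in K20R, with a log2 fold difference of -0.52 ± 0.24 (SE, limma adjusted p = 0.235). The region 27941 bp downstream is the promoter of the neighbour Golga4, a Golgi protein gene, and its percentiles overlapped, at 73.4 and 63.3 in the WT libraries and 62.7 and 71.9 in the K20R libraries.

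At Evx1 the region 7401 bp upstream was at percentile 74.8 and 78.4 in WT compared with 58.3 and 67.8 in K20R, with a log2 fold difference of -0.24 ± 0.19 (SE, limma adjusted p = 0.592). The region 22179 bp upstream overlapped, at 66.2 and 82.1 in WT, against 62.7 and 71.1 in K20R. The region 39548 bp upstream, on the side of the HoxA cluster, was weaker and went the other way, at 41.1 and 36.6 in the WT libraries and 43.2 and 45.4 in the K20R libraries. At Lhx1 the promoter of the neighbour Aatf, 11949 bp from the Lhx1 TSS, was at 95.6 and 92.0 in WT compared with 92.8 and 93.6 in K20R. Its log2 fold difference was 0.39 ± 0.13 (SE, limma adjusted p = 0.0789). By the summit pileup the log2 difference had the other sign, at -0.19 ± 0.13 (SE, limma adjusted p = 0.312). The region 37701 bp upstream of Lhx1 overlapped, at 39.3 and 34.2 in WT, against 33.1 and 47.9 in K20R.

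By percentile, 9 of the 19 common regions were lower in both K20R libraries, 3 were higher and 7 overlapped, which is 47.4% lower and 15.8% higher. Over all common regions 34.8% were lower and 18.6% higher. The fitted log2 fold was lower in K20R at 9 of the 19 regions. With the recovered pileup in place of the fold it was lower at 14 of the 19, and 3 passed an adjusted p of 0.05, all lower: the Eomes region 8686 bp downstream (log2 difference -0.93 ± 0.12 SE, limma adjusted p = 5.53e-05), the Evx1 promoter region (-0.99 ± 0.16, limma adjusted p = 0.000324) and the Lhx1 promoter region (-0.57 ± 0.14, limma adjusted p = 0.00754). At the first and the second of these the strongest peaks of the genotypes have different summits. On that scale 10.7% of all common regions were lower and 9.73% higher at the same adjusted p. The median log2 difference over all common regions was 0.0141 by the fold and 0.0321 by the pileup. Both medians were positive, so over all common regions more were higher than lower in K20R on each scale. The Gsc region 46223 bp downstream had a log2 pileup difference of -0.56 ± 0.21 (SE, limma adjusted p = 0.0740).

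**Figure D3:**
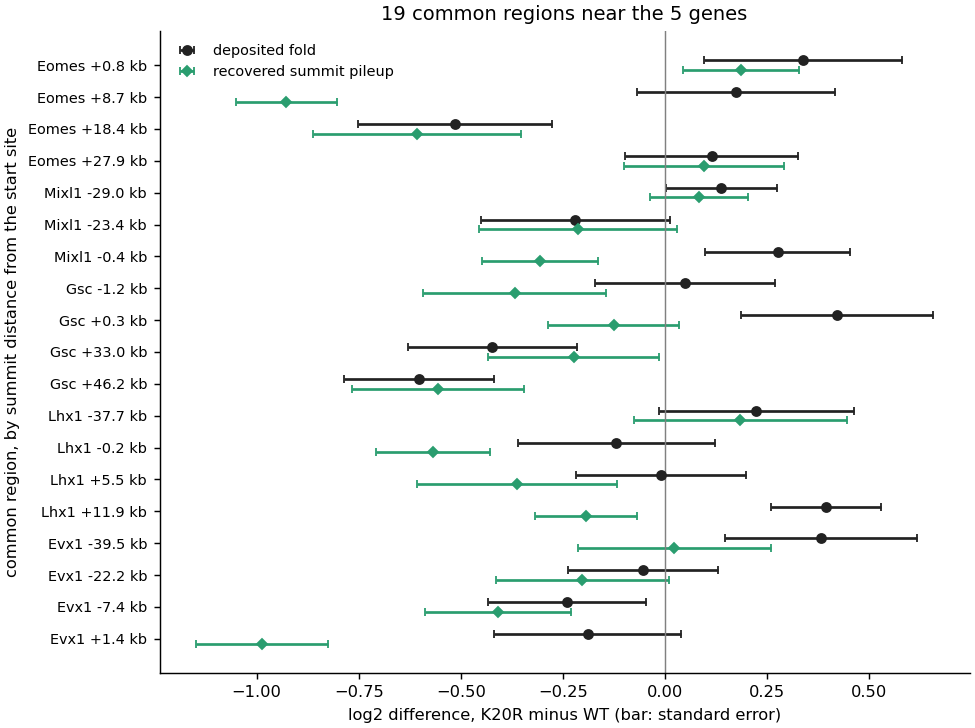
Log2 difference between K20R and WT (horizontal axis, bars for the standard error) at the 19 common regions of the 5 loci (vertical axis, by gene and distance of the summit from the TSS in kb), from the deposited fold (circles) and from the recovered summit pileup (diamonds). The measures lie close together at the Gsc region 46223 bp and the Eomes region 18435 bp downstream. They lie apart at the Eomes region 8686 bp downstream and the promoters of Evx1, Lhx1, Mixl1, Gsc and Aatf. There the pileup gives the lower value.

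The words searched within 100 bp of the summit on both strands were few in the 37 regions. TCACACCT, a T-box word, and AATCCACA, bound by FOXH1, the partner of Smad proteins in Nodal signalling, occurred in 0 of 37 (1.25% and 0.687% of all regions), as did ATTTGCAT, the octamer of Pou5f1 (1.83%). CTTTGAT or CTTTGAA, the words of the TCF-LEF factors of Wnt signalling, occurred in 3 of 37 (6.46% of all regions), one of them the Mixl1 promoter, which also held the single AGATAA (7.81%), a GATA word. TAATCC and TAATTA, words of homeodomain factors of the type of Gsc and of Mixl1, occurred in 2 regions each (5.95% and 3.48%), with TAATTA in the Gsc region 46223 bp downstream and in the Evx1 promoter region. The CTCF consensus was in 2 of 37 (5.97%), and with 1 mismatch allowed it was in 5 of 37 (19.6%). TAATCC and AATCCACA can share letters, the strict CTCF matches are counted again among those with 1 mismatch, and a missing word says only that these letters are not in the window.

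The signals that induce the streak and the partners and targets of the 5 factors were followed at their promoters. The 27 such genes were likewise chosen with earlier results of these data known, and 25 had a promoter peak in all 4 lists. The genotypes did not overlap at 15 of them, with 12 lower (48%) and 3 higher (12%) in K20R, and with 9 lower and 4 higher when ranked only among promoter peaks, where Nodal, Fgf4 and Kdr overlapped. Over all genes the shares were 32.2% lower and 15.7% higher, and 22.9% and 23.8% when ranked that way. The median difference of the percentile was -3.81 for the signals and -3.82 for the partners and targets, against -0.82 for all genes with a promoter peak.

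Of 11 signalling genes 5 were lower and 1 was higher, beside 32.2% and 15.7% of all genes, and 3 were lower when ranked among promoter peaks. Tdgf1, the co-receptor of Nodal, was at percentile 85.9 and 87.1 in the WT libraries and 76.2 and 74.0 in the K20R libraries. Fgf8, a growth factor of the streak, was at 69.4 and 66.3 in WT compared with 58.9 and 48.9 in K20R. Nodal itself differed little, with 80.6 and 81.8 in WT, against 78.9 and 76.9 in K20R, and the lower ones further included Smad3 and Fgf4. Wnt3a, a Wnt ligand of the posterior streak, was higher, at 33.8 and 41.2 in the WT libraries and 45.4 and 50.0 in the K20R libraries.

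Of 14 partners and targets with a peak in every list 7 were lower and 2 were higher, beside the same 32.2% and 15.7%, and ranked among promoter peaks 6 were lower and 3 higher. The promoter of Foxa2, a factor of definitive endoderm and the node, was at percentile 96.7 and 97.1 in WT compared with 81.1 and 78.9 in K20R. That of T, the T-box factor Brachyury, was at 83.1 and 82.8 in WT, against 66.7 and 65.6 in K20R. Gata6, a factor of endoderm and heart, was at 83.5 and 88.2 in the WT libraries and 56.5 and 66.0 in the K20R libraries, and Gata4, Mesp2, Sox17 and Kdr were lower as well. Mesp1, a factor of the earliest cardiac mesoderm, was higher, at 43.5 and 43.4 in WT compared with 67.3 and 72.4 in K20R, and so was Pdgfra, a receptor of paraxial mesoderm, at 82.7 and 82.1 in WT, against 87.3 and 88.6 in K20R. Mesp1 and Mesp2 are neighbouring paralogs, and the order of the genotypes at their promoters was opposite.

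**Figure D4:**
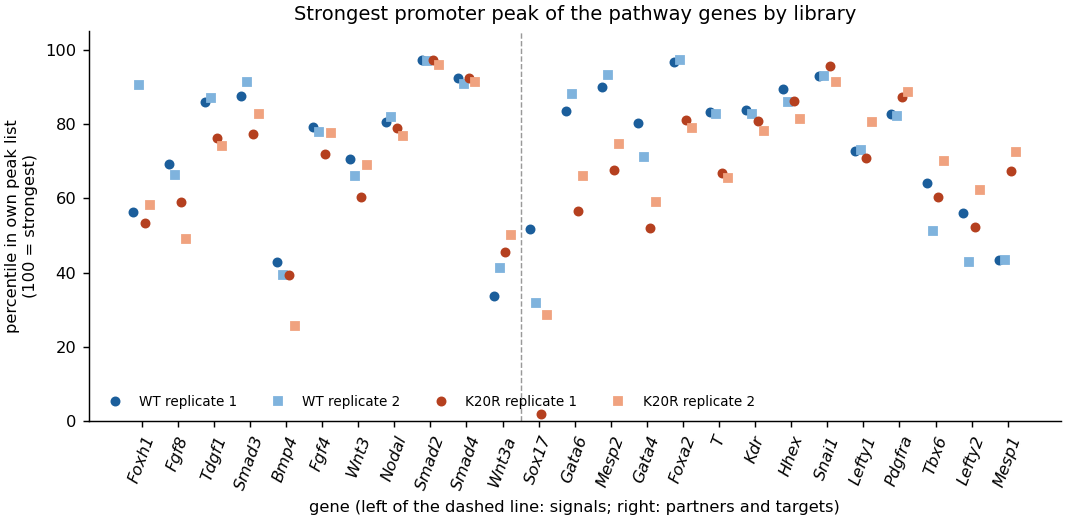
Percentile of the strongest promoter peak in its own list (vertical axis, 100 the strongest) for the 25 streak pathway genes with a peak in all lists (horizontal axis, signals left of the dashed line, partners and targets right of it), with a point for each library. For Foxa2, T, Gata6, Gata4 and Mesp2 both K20R points lie well below the WT points, and for Mesp1 they lie above.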

How the data were processed

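ATAC-seq peak lists of 4 libraries (2 WT, 2 K20R, day 4) were analysed, grouped by the sample labels. The authors trimmed reads with Trim Galore, aligned them to mm10 with Bowtie2, removed reads of low mapping quality, duplicates and blacklisted reads, and called peaks with MACS2, separately for each library as the lists show. The deposited score is the −log10 p times 10, the deposited ratio is the fold enrichment at the summit over the local background, and the authors' −log10 p and −log10 q belong to that summit. The lists hold 51.7%, 50.5%, 58.6% and 60.8% of their peak numbers, and the rule for the removed peaks is not given in the sources used here. The weakest peak of each list has a −log10 p between 2.00 and 2.02.

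TSSs came from the GENCODE vM21 basic annotation, whose build is that of the lists. Percentiles, merged regions, recovered pileups (whole in 100% of peaks, within 0.1) and word counts were computed with Python 3 (numpy, pandas), and limma with trend was run in R and tested on simulated data. Numbers per library were compared by an exact permutation test. The genes, lists and words were chosen with earlier results of these data known. The text names the 5 genes, their promoter regions, each genotype-restricted region, regions past an adjusted p of 0.05 and the 2 strongest common regions of each locus outside the promoter, and pathway genes where the genotypes do not overlap; a few others were named after their values were seen.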

Additional observations from a re-analysis of the deposited data

How the results depend on the processing

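The 3 lower and 2 higher promoters kept these counts without each library in turn, with windows of 500 and 2500 bp and with the 5′ end of the gene alone. With peaks of −log10 q of at least 5 only, 1 promoter was higher (Gsc overlapped) and 2 were lower. Ranked by fold, 1 was lower, and the difference at Mixl1 turned to 7.66. The difference of -1.5 peaks over the 5 loci turned to 3 when each list was limited to its strongest 51823 peaks, to 2 within 10 kb and to 0.555 per 10000 peaks, and was -12 within 100 kb. Within 10 kb the differences at Eomes, Gsc and Lhx1 turned to 0.5, -0.5 and 0.5 peaks, and within 100 kb that at Evx1 turned to -2.5. WT-restricted regions numbered 3 within 10 kb, 10 within 100 kb, 3 in those shortened lists and 1 with a −log10 q of at least 5, and K20R-restricted regions 5 within 100 kb and 1 with that q. Leaving out each library in turn gave 5 to 8 WT-restricted and 3 to 5 K20R-restricted regions, with 8 WT-restricted regions without WT replicate 1 and likewise without WT replicate 2. In limma each such fit gave 0 lower regions and 0 to 1 higher (the Aatf promoter, without WT replicate 1), with the lone library assumed to vary like the others. Limma called 2 lower regions on the −log10 p, 3 on the pileup and 0 where every list had to reach that q. The causes were not tested. The replicate numbers are not stated to pair libraries (r = 0.214 over 38527 regions between the deviations of the first libraries), and with a replicate block limma again called 1 lower region, the promoter counts were 3 and 2, and the difference in peaks was -1.5. At this depth, regions under the calling threshold of a list cannot be told from closed ones.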
